A study of Drosophila melanogaster with 4 samples.

Results

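The genes *18w* (*18-wheeler*, or *Toll-2*) and *Tollo* (*Toll-8*) encode receptors of the Toll family, and CBP occupancy at their loci was compared between *gd7* and wild-type embryos. The members are all CBP-bound regions that overlap a window of 40 kb on 2R around *18w* (15970000 to 16010000, release 5 of the genome) or a window of 60 kb on 3L around *Tollo* (15190000 to 15250000). There were 10 such regions out of 4952 listed, namely 6 of the 1939 regions in *gd7* and 4 of the 3013 regions in wild-type. The loci were chosen by their CBP values in the lists of both genotypes, so the values, widths and counts below describe them and none is tested.

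CBP chromatin immunoprecipitation and sequencing (ChIP-seq) was performed on whole embryos aged 2 to 4 hours with a rabbit antibody against *Drosophila* CBP. The *gd7* embryos came from mothers homozygous for the *gd7* allele and lack intranuclear Dorsal, which turns the whole embryo into presumptive dorsal ectoderm, and the wild-type embryos were *w1118*. Each genotype had 1 CBP library, made from pooled immunoprecipitations, and 1 input library, so no difference has a replicate check. The lists hold no read counts, so no interval for counting error is given. The mutation is maternal and changes both Dorsal and the tissues present, and these cannot be told apart. Nor can CBP bound in fewer cells be told from less CBP per cell in whole embryos.

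Toll-family receptors are transmembrane proteins with leucine-rich repeats outside the cell and a TIR domain inside it. Toll itself, activated ventrally by its ligand Spätzle, sends Dorsal into the nucleus. *18w* and *Tollo* act in another process of the early embryo. Together with *Toll-6* they are expressed in overlapping stripes under the control of pair-rule genes, and they orient the cell intercalation that lengthens the germband. CBP, a co-activator with histone acetyltransferase activity, marks many promoters and enhancers.

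The value of a region is its log2 enrichment of ChIP over input. CBP occupancy at *18w* was lower in *gd7* than in wild-type at both of its regions. At *Tollo* it was instead higher in *gd7* at both regions that the genotypes share, and 2 more were listed in *gd7* alone. The strongest region of *18w* had a value of 3.70 in *gd7* and 4.93 in wild-type. For *Tollo*, the strongest was at 3.67 in *gd7* and the strongest in wild-type, at another position, was at 2.82. The top regions of both genes thus stood at nearly the same level in *gd7*, while in wild-type *18w* was far above *Tollo*.

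**Figure D1:**
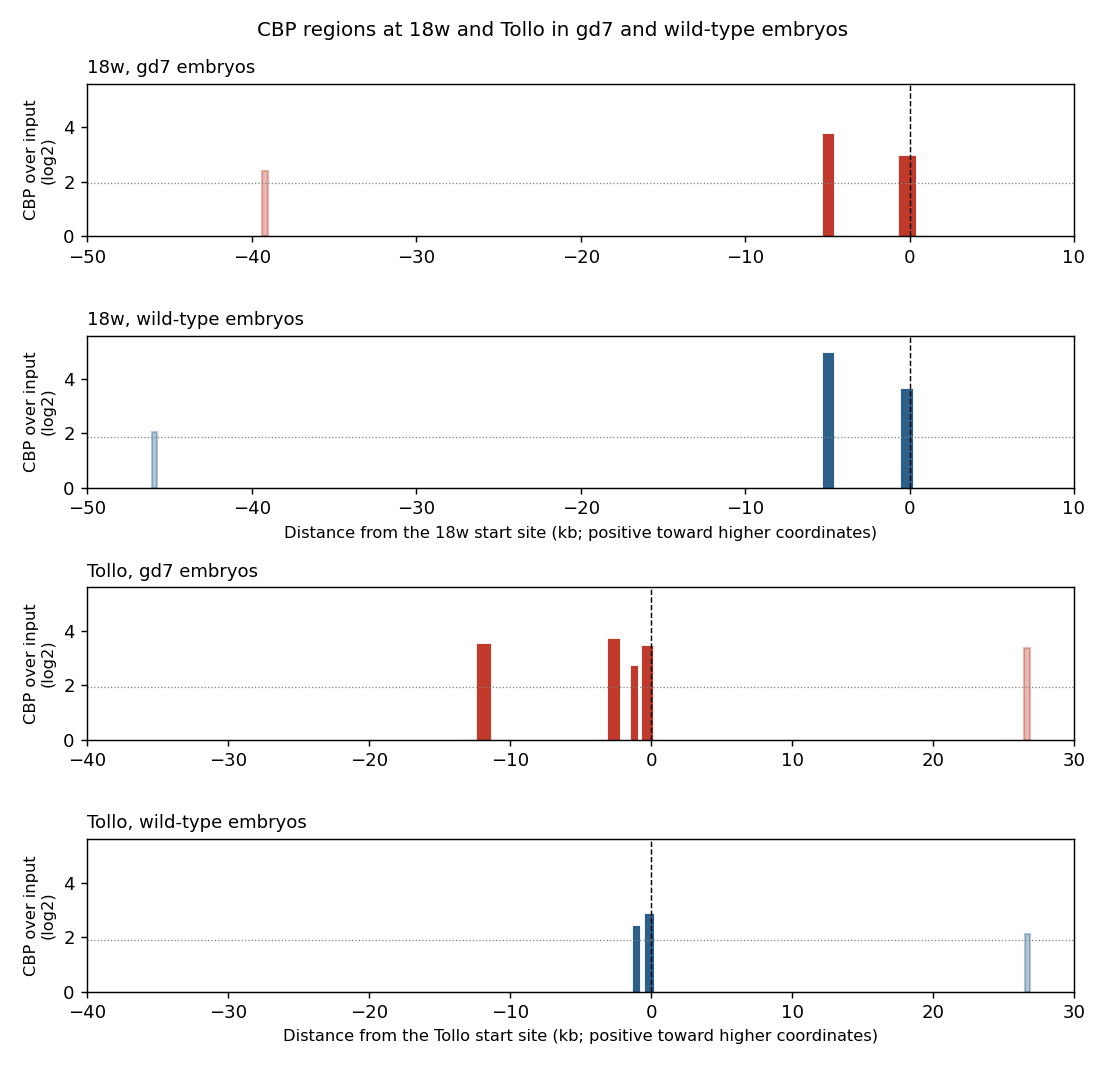
CBP regions at *18w* (upper panels) and *Tollo* (lower panels), with *gd7* above wild-type; the x axis is the distance from the start site in kb, each bar spans the width of a region and its height is the log2 enrichment over input. Pale bars lie outside the windows, the dashed line is the start site and the dotted line the lowest value of the list; *Tollo* has 4 regions inside the window in *gd7* and 2 in wild-type, while *18w* has 2 in each.

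The distal region of *18w* lay on 2R, 4926 bp from the start site of *18w* at 15999016 and on its lower-coordinate side. It ran from 15993845 to 15994335 in *gd7* and over the same 490 bp in wild-type, with the same centre. Identical borders were found at only 16 of the 1217 wild-type regions that overlap a *gd7* region (1.31%), and a shared centre at 177 (14.5%). Its value was 3.70 in *gd7*, or 13.0-fold over input, and 4.93 in wild-type, or 30.5-fold. The difference of *gd7* minus wild-type was -1.23 on the log2 scale, a 2.34-fold lower enrichment. It ranked 83 in the *gd7* list and 2 in the wild-type list. A decrease of more than 2-fold was found at 5.92% of all shared regions. This share leaves out weaker wild-type regions that fell below the *gd7* list, whose lowest value was 1.93. Of the 40 shared regions with a wild-type value of 4 or more, 23 were more than 2-fold lower.

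The promoter region of *18w* spanned the start site in both genotypes. In *gd7* it ran from 15998465 to 15999340, a width of 875 bp, and in wild-type from 15998535 to 15999165, a width of 630 bp. Its value was 2.90 in *gd7* (7.44-fold over input) and 3.60 in wild-type (12.1-fold), a difference of -0.70. The centres were 70 bp apart, with 376 bp to the start site in *gd7* and 306 bp in wild-type. This region was therefore wider in *gd7* although its peak was lower. Among all shared regions, 573 (47.1%) were wider in *gd7*.

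All 4 wild-type regions of the loci had a *gd7* region, next to 40.4% of all wild-type regions. That share is not matched by value. Among wild-type regions within 0.25 of their values, it was 100% for the distal and 72.2% for the promoter region of *18w*. For *Tollo* it was 47.9% at the promoter region and 32.8% at the other shared region. At *Tollo*, the promoter region on 3L spanned the start site at 15228741 in both genotypes, and its centre, 136 bp away, was at the same position in both. It ran from 15228150 to 15228780 in *gd7*, which is 630 bp, and from 15228360 to 15228850 in wild-type, which is 490 bp. Its value was 3.40 in *gd7*, or 10.6-fold over input, and 2.82 in wild-type, or 7.06-fold. The difference was 0.58 on the log2 scale, higher in *gd7* and short of the 2-fold limit that 10.2% of shared regions passed in that direction. In rank it stood at 189 in *gd7* and 712 in wild-type.

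A weaker region lay next to the promoter region. In *gd7* it ran from 15227415 to 15227765 with a value of 2.67, and in wild-type from 15227520 to 15227905 with 2.37, a difference of 0.29. Its width was 350 bp in *gd7* and 385 bp in wild-type. The centres were 210 bp apart, with 1186 bp to the start site in *gd7* and 976 bp in wild-type, so the listed peaks overlap but do not coincide.

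The other *Tollo* regions were listed in *gd7* alone. One of them, 2691 bp on the lower-coordinate side of the start site, ran from 15225735 to 15226435 over 700 bp. It had the highest value of the locus, 3.67 (12.8-fold over input), and ranked 86 of 1939. The other, 11931 bp away on the same side, ran from 15216425 to 15217335 and was the widest of the locus at 910 bp. Its value was 3.47 (11.1-fold) and its rank 158. In the wild-type list nothing overlapped them, so their wild-type signal was below the cut-off or in a stretch too short to be listed, and no fold is given. Absence from the list is not absence of CBP. The authors detected some wild-type CBP in nearly all *gd7* regions and defined no *gd7*-only class. The lowest value listed in wild-type was 1.88, and the *gd7* values stood 1.79 and 1.59 above it on the log2 scale. These are distances from the lowest listed value, set by the *gd7* value alone, and not differences between the genotypes. Of all *gd7* regions, 4.69% had no wild-type region and stood more than 2-fold above that value. In total 724 *gd7* regions (37.3%) had no wild-type region, and the *Tollo* regions ranked 7 and 16 among them by value.

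**Figure D2:**
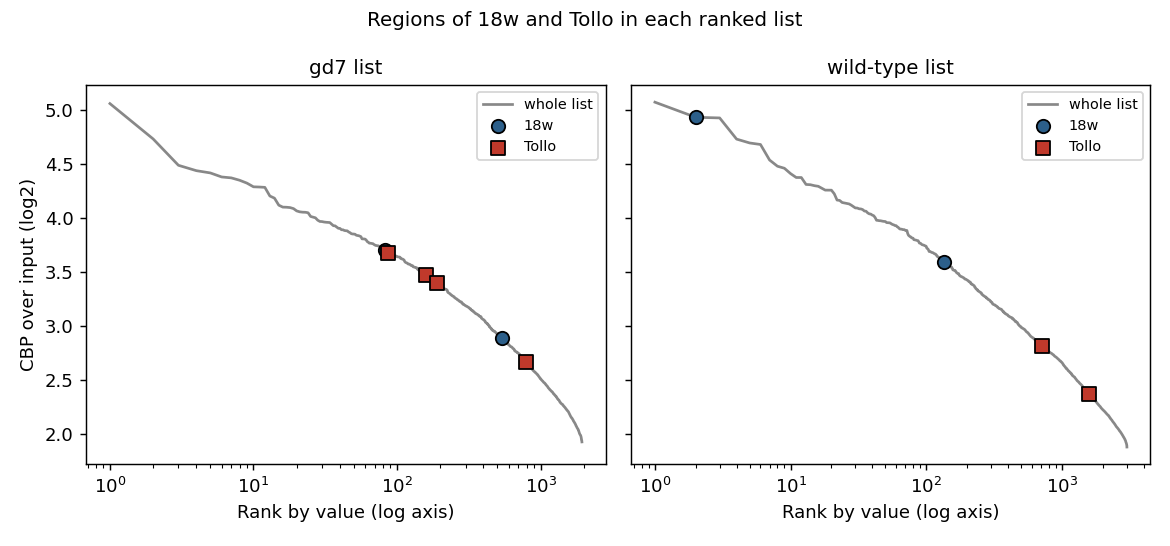
Values of all regions in the *gd7* list (left) and the wild-type list (right), as log2 enrichment over input against rank on a log axis, with the regions of *18w* (circles) and *Tollo* (squares) marked. In *gd7*, the strongest region of *18w* (rank 83) and that of *Tollo* (rank 86) lie side by side, and in wild-type *18w* is at rank 2 and *Tollo* at 712.

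Within *gd7*, the 6 regions of both genes ranged from 2.67 to 3.70, next to a median of 2.53 over the list. The 4 wild-type regions ranged from 2.37 to 4.93, next to a median of 2.40. In width they ranged from 350 to 910 bp in *gd7* (list median 455 bp) and from 385 to 630 bp in wild-type (list median 350 bp). The widest region of the loci, at 910 bp, was 302nd by width in *gd7*. When the arms were divided into tiles of 60 kb, 8.03% of the tiles held at least 4 *gd7* regions, as the *Tollo* window did, and 38.0% held at least 2 wild-type regions. For *18w*, 16.1% of the 40 kb tiles held at least 2 regions in *gd7* and 26.6% in wild-type.

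The difference at a region went with its value, in opposite directions for wild-type and *gd7* values. Picking by a value that enters the difference, among listed regions only, can give such a pattern by itself, which was not tested. The members were read beside regions of like value, within 0.25 on the log2 scale, in each genotype in turn. Next to wild-type regions as strong as itself, the distal *18w* region did not stand out. Only 4 others were as strong, all shared, with a median difference of -1.23, and 2 of them had a difference at least as low. Of the 42 wild-type regions with a value of 4 or more, 40 were shared, and all 40 were lower in *gd7*, and 23 of them more than 2-fold. The promoter region of *18w*, with a difference of -0.70, had 114 shared regions of like wild-type value with a median of -0.63, of which 43.0% were as low or lower.

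Set beside regions of like *gd7* value, the distal *18w* region was near the end of the range. Among 120 such shared *gd7* regions the median difference was 0.70, and 1 (0.833%) was as low as -1.23. For the promoter region, 12.7% of 339 shared *gd7* regions of like value were as low as -0.70. How unusual the decrease at *18w* looks therefore depends on the genotype in which like values are sought.

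For the promoter region of *Tollo* the order was reversed, but it was near the end of neither range. Among 346 shared regions of like wild-type value the median difference was -0.13, and 17.1% were as high as 0.58. Among 199 shared regions of like *gd7* value the median was 0.57, and 49.7% were as high. The weaker *Tollo* region, at 0.29, lay at the median of regions of like wild-type value (0.30), while 31.2% of those of like *gd7* value were as high. For the regions listed in *gd7* alone, 14 of 140 *gd7* regions with a value like 3.67 had no listed wild-type region either. The same held for 22 of 199 with a value like 3.47.

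**Figure D3:**
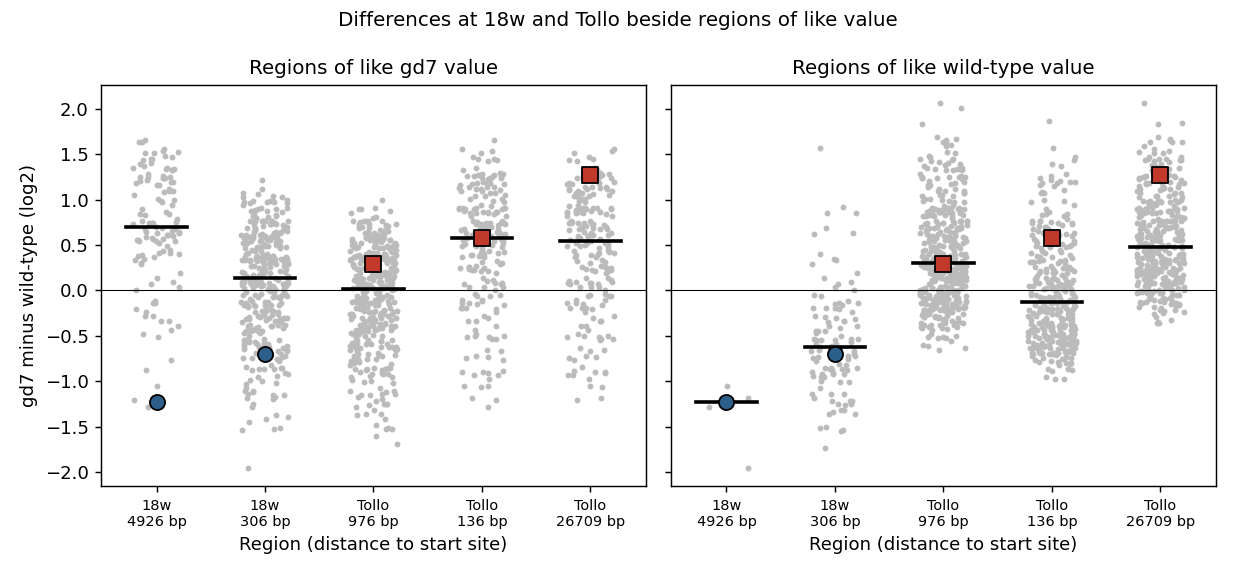
Difference of *gd7* minus wild-type on the log2 scale at the shared regions of *18w* (circles) and *Tollo* (squares), named by the distance of the wild-type centre from the start site, the last of which (26709 bp) lies outside the window. Grey points are shared regions within 0.25 of its *gd7* value (left) or its wild-type value (right) and black bars their medians; the distal *18w* region, at -1.23, is at the median on the right and far below it on the left, and the *Tollo* promoter region, at 0.58, is at the median on the left and above it on the right.

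The window borders are not those of the CBP signal, and the nearest regions beyond them are given for that reason. On the higher-coordinate side of *Tollo*, 5.2 kb outside the window, *gd7* had a region from 15255205 to 15255590 with a value of 3.37, and wild-type one from 15255275 to 15255590 with 2.10. This difference of 1.27, or 2.41-fold higher in *gd7*, was the largest at any shared region whose nearest start site is that of *Tollo*, 26709 bp away. The wild-type value of this region ranked 2430 of 3013, near the lowest listed value of 1.88. No *gd7* region had a value below 1.93, so a large decrease could not be listed here. Of 375 shared regions of like wild-type value, with a median difference of 0.48, 9.33% were as high. On the lower-coordinate side of *18w*, a *gd7* region with 2.39 lay 10000 bp outside the window, and a wild-type region with 2.05, also nearest to *18w*, lay 16.8 kb outside it. They did not overlap. On the other side of *18w* the next *gd7* region, at 1.96, was 46.2 kb outside the window, and the next wild-type region, nearest to *mus209*, was 140.1 kb outside it. On the lower side of *Tollo* the next *gd7* region lay 151.4 kb outside, at 2.46, and the next wild-type region 54.1 kb outside, nearest to *Pdi*, at 2.67.

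Each gene has a Toll-family neighbour on its arm. *Toll-7* lies 285 kb from *18w* between start sites, and *Toll-6* lies 101 kb from *Tollo*. All 3 shared regions nearest to *18w* or *Toll-7* were lower in *gd7*, and all 5 nearest to *Tollo* or *Toll-6* were higher. Over all shared regions 46.8% were lower and 53.2% higher, but these shares are not matched by value. The 3 had wild-type values of 3.60 to 4.93, where regions of like wild-type value had median differences of -1.23 to -0.63. The 5 had wild-type values of 2.10 to 2.82, with such medians from -0.13 to 0.48. Nothing particular to the gene pairs is read from the directions. *Toll-7* had a region centred 495 bp away from its start site, with 3.18 in *gd7* and 4.08 in wild-type, a difference of -0.91 in the same direction as at *18w*. A second wild-type region of *Toll-7*, at 2.18, had no *gd7* region. Of the shared regions like the stronger one in wild-type value, 54.7% were as low as -0.91. At *Toll-6*, a region centred 6870 bp away had 3.09 in *gd7* and 2.79 in wild-type, and the promoter region had 2.55 in *gd7* and 2.27 in wild-type.

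**Figure D4:**
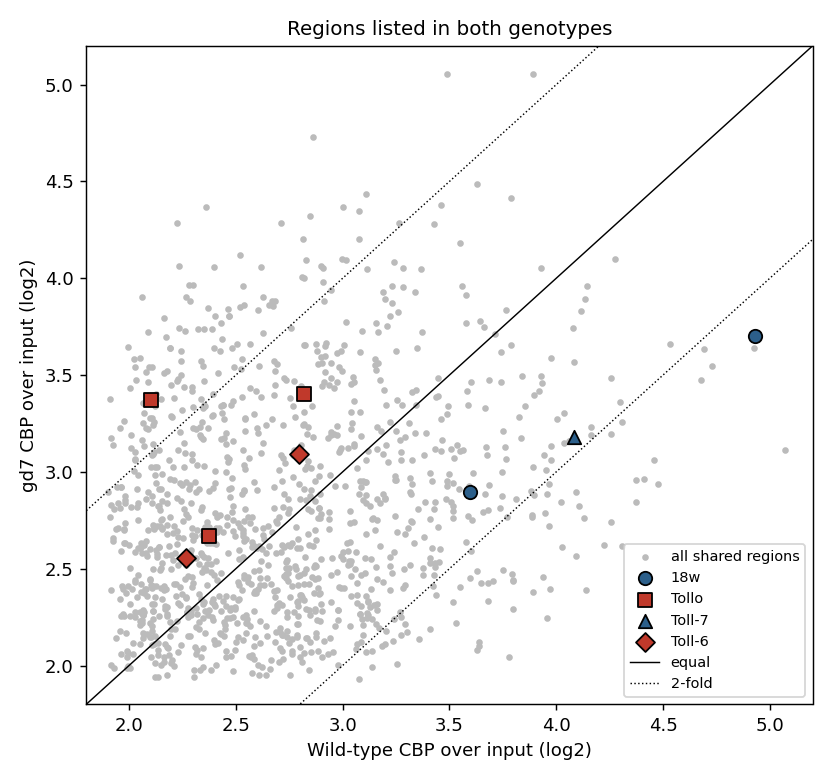
Log2 enrichment over input in *gd7* (y axis) against wild-type (x axis) at the 1217 wild-type regions that overlap a *gd7* region, with the regions of 4 Toll-family genes marked; the solid line is equality and the dotted lines 2-fold. *18w* and *Toll-7* lie below the solid line, and *Tollo* and *Toll-6* above it, with the *Tollo* region at 3.37 in *gd7* and 2.10 in wild-type beyond the upper dotted line.

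Across the Toll family, 7 of 9 genes lie on 2L, 2R or 3L, the arms on which all wild-type regions could be given a nearest gene, and 4 of these were the nearest gene of such a region. Over all 8242 protein-coding genes on these arms the share was 14%, but *18w* and *Tollo* were chosen for their regions. The 4 genes are *18w*, *Tollo*, *Toll-6* and *Toll-7*, whereas *Toll-4*, *Tehao* and *Toll-9* were the nearest gene of none. *Tl*, which encodes Toll, and *MstProx* lie on 3R and were not analysed here. None of the 5 genes for Spätzle-family ligands on these arms (*NT1*, *spz3*, *spz4*, *spz5* and *spz6*) was the nearest gene of a wild-type region, and with so low a share over all genes nothing is read from this count. Of 6 genes on these arms in a list for the Dorsal pathway, which also holds *Dif*, 1 had a region, near the share over all genes. It was *cact*, which encodes the inhibitor that holds Dorsal in the cytoplasm. The region lay 95 bp from a start site, with 2.23 in *gd7* and 2.88 in wild-type. For *dl*, *Dif*, *Myd88*, *pip* and *ndl* none was listed.

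The shared regions most like those of the members in both values, by straight-line distance over the 2 CBP libraries, were sought among 824 with a named nearest gene. Closest to the distal *18w* region were those of *emc*, which antagonizes basic helix-loop-helix factors, with 3.64 in *gd7* and 4.69 in wild-type, and of the homeotic gene *Dfd*, with 3.47 in *gd7* and 4.68 in wild-type. Next came *CG11629* with 3.66 in *gd7* and 4.53 in wild-type. Closest to the *Tollo* promoter region was *numb*, an inhibitor of Notch signaling, with 3.41 in *gd7* and 2.82 in wild-type. It was followed by *Su(z)2*, which is related to *Psc* of the Polycomb group, with 3.44 in *gd7* and 2.81 in wild-type. Then came *wech* with 3.38 in *gd7* and 2.75 in wild-type. The *Su(z)2* region lay 22172 bp from the start site, whereas those of *numb* and *wech* lay 1055 and 381 bp from theirs. The straight-line distances in value were 0.25 to 0.40 for *18w* and 0.01 to 0.07 for *Tollo*, so the named matches were looser for *18w*. Among the 388 shared regions with no named gene, the closest to the distal *18w* region lay on 3R from 12695025 to 12695480 in wild-type, with 3.64 in *gd7* and 4.92 in wild-type, at a distance of 0.06.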

How the data were processed

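CBP ChIP-seq regions of *gd7* and wild-type embryos were analysed, with 1 CBP and 1 input library each. The authors aligned SOLiD reads to release 5, calculated log2 of ChIP divided by input every 35 bp, median smoothed it and built regions from the highest 5%, the shortest listed being 210 bp wide. The deposited log2 value of a region lacks a constant, found from the study's peak table as 1.927 in *gd7* (170 matched regions) and 1.876 in wild-type (1999) and added back. The authors did not normalize the genotypes to each other. The depth of the libraries is not in the files, and the numbers of mapped reads that the authors report for each library were not used here.

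Positions and widths (end minus start) are those of the files. Nearest genes and start sites came from the distances in that table, of which 3R is held in part. Gene strands, exons and introns were not analysed here. Names and neighbours came from a release 6 table, in which 1164 of 1186 nearest-gene names were matched with synonyms and whose coordinates were not used. An overlap of 1 bp or more made regions shared, and the difference is the highest overlapping *gd7* value minus the wild-type value, with a limit of 2-fold. For comparisons by like *gd7* value it was taken per *gd7* region, as its value minus the highest overlapping wild-type value. A broad wild-type region can therefore enter those comparisons more than once. Counting was tested on simulated regions. Python 3.11.15, numpy 2.4.6, pandas 2.3.3 and matplotlib 3.10.9 were used. The loci, the gene lists, the rule for named genes (both genes, 3 lists, the regions beside the windows and the 3 closest in value) and the alternatives were chosen with earlier results of these data known. The range of 0.25 for like values and the tiles were added later. No sequence was used here.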

Additional observations from a re-analysis of the deposited data

How the results depend on the processing

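All 23 values of the 4 shared differences under other settings kept their sign, but these settings could not have reversed it. Each wild-type region overlapped a single *gd7* region, so every other rule of sharing that kept the pair gave the same difference. The remaining settings moved all differences by a constant, 0.051 or 0.06, which is smaller than any of them. The kept signs are therefore no check on the differences. With the values as deposited, the differences were -1.28 and -0.75 at the distal and promoter regions of *18w*, and 0.53 and 0.24 at the promoter region and the weaker region of *Tollo*. After subtraction of the median difference of shared regions, 0.06, they were -1.29, -0.76, 0.52 and 0.24 in the same order. Where sharing required centres no more than 200 bp apart, the weaker *Tollo* region was not shared, since its centres are 210 bp apart. When only regions with a value of at least 2.5 were kept, *Tollo* had 4 regions in *gd7* and 1 in wild-type, and *18w* 2 in each. With a limit of 1.5-fold, 18.4% of shared regions were lower and 24.1% higher in *gd7*, and both *18w* regions passed it. Among shared regions with a wild-type value of 2.5 or more, 10% were more than 2-fold lower and 4.86% more than 2-fold higher. No paired analysis was possible because each genotype has 1 CBP library, and no replicate could be left out. The lists omit weaker signal, so no difference can be taken at regions of 1 genotype alone.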

Other observations

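Between the start site of *Toll-7* and the *18w* window on 2R, *gd7* embryos had 8 regions and wild-type embryos 3. The *gd7* values ranged from 2.08 to 2.96 and the wild-type values from 2.05 to 2.12. Of these, 7 in *gd7* had no wild-type region, next to 37.3% over the whole *gd7* list. That share is not matched by value, and it was larger among weaker *gd7* regions. Within 0.25 of 2.55 it was 40.9%, and within 0.25 of 3.67 it was 10%. Of the 3 in wild-type, 1 was shared, beside 40.4% of all wild-type regions and 26.6% of those within 0.25 of 2.05. The shared region ran from 15919715 to 15920275 in *gd7* with 2.60 and from 15919750 to 15919995 in wild-type with 2.10. The strongest in *gd7*, from 15928535 to 15929200, had no wild-type region. These regions were chosen after their values were seen, and the nearest start site was that of *CG16898* for 2 of the wild-type regions and that of *18w* for the other. The nearest gene of the *gd7* regions without a wild-type region is not known here.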
